A study of Mus musculus with 6 samples.

Results

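Adenylate kinases and creatine kinases move high-energy phosphate inside the cell. Adenylate kinases exchange a phosphate between adenine nucleotides, turning ADP into ATP and AMP and back, so that AMP rises when ATP is short. Creatine kinases pass the phosphate of ATP to creatine at the mitochondrion and back to ADP where ATP is used, a shuttle on which neurons and glia both draw. The 7 genes described here are Ak1, Ak3, Ak4, Ak5 and Ak6 of the first family and Ckb and Ckmt1 of the second. They were taken by symbol from a deposited table of 55335 genes. The set was chosen by the FPKM values of Ak4, which were lower with the Brpf1 hairpin in each pair of libraries, so the members' values between the 2 viruses are a description and carry no test.

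The study infected primary GABAergic interneurons, the inhibitory neurons of the forebrain, which were prepared from the brains of wild-type C57BL/6 mouse embryos at embryonic day 14.5. Adeno-associated virus (AAV) was applied to all 6 samples for 12 hours: 3 received AAV-shbrpf1, whose short hairpin targets Brpf1 (the hairpin group), and 3 received AAV-scramble, whose hairpin is scrambled (the scramble group). There was no uninfected sample among them. Brpf1 encodes a scaffold of MYST histone acetyltransferase complexes, and the stated aim was to learn its role in interneurons of the medial ganglionic eminence. The sources used here do not give the promoter of the hairpin or the time of harvest. Nor do they state that samples within a group were separate cultures or embryos, so each p-value reflects the spread between these samples alone, which may be technical. One label field names neural progenitor cells as the source.

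The values are FPKM, fragments scaled to transcript length and sequencing depth, with an estimated 13.3 to 21.3 M fragments per library. Each sample has a replicate number from 1 to 3, and libraries with the same number resembled each other, so a pair here means the scramble and the hairpin library of one number. Genes of GABAergic neurons were measured in 9 of 9 cases, while 0 of 6 glutamatergic marker genes reached the minimum of a mean of 1 FPKM in a group. Progenitor, astrocyte and oligodendrocyte lineage markers were present, with 6 of 7, 8 of 8 and 8 of 8 measured. Features of ribosomal RNA loci made up 7.73% and 11.9% of fragments in both libraries with number 2, against 2.18% to 3.83% in the other 4. The target Brpf1 stood at 3.29, 5.45 and 4.84 FPKM in the scramble group and at 3.13, 4.58 and 3.78 FPKM in the hairpin group. Its groups overlapped, and the difference, hairpin minus scramble on the log2(FPKM + 1) scale used throughout, was -0.18 ± 0.26 (SE, limma adjusted p = 1). Brpf1 was lower with the hairpin in each pair, at ratios of 0.951, 0.840 and 0.782, as were 11.3% of all genes tested. With the replicate number as a block in the fit its SE was 0.10, and 0 genes passed in that fit. All 7 kinase genes passed the minimum, Ak4 on both group means.

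Ckb was by far the most abundant of the 7 genes and Ak4 the least. Ckb, the brain-type cytosolic creatine kinase, averaged 453 ± 191 FPKM over the 6 libraries (SD) and was exceeded by 39 to 109 of the 12792 genes tested in a library. Ak1, the main cytosolic adenylate kinase, followed at 32.6 ± 4.23 FPKM. Ak3, a kinase of the mitochondrial matrix that uses GTP, averaged 24.4 ± 7.54 FPKM, and Ckmt1, the ubiquitous creatine kinase of the mitochondrial intermembrane space, 20.9 ± 3.92 FPKM. Ak6, an atypical adenylate kinase of the nucleus, averaged 19.4 ± 8.40 FPKM. Ak5, a cytosolic form enriched in brain, came to 10.4 ± 1.94 FPKM and Ak4, which sits in the mitochondrial matrix and is known for its induction by low oxygen, to 2.87 ± 2.13 FPKM.

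The ends of this order were separate and its middle was not. Ckb was 5.37 to 22.0 times the level of Ak1 within a library, and Ak5 was above Ak4 in 6 of 6 libraries. Between these, the ranges of neighbours overlapped: Ak1 was above Ak3 in 4 of 6 libraries, Ak3 above Ckmt1 in 4, Ckmt1 above Ak6 in 2 and Ak6 above Ak5 in 4. Among other genes of these families, Ak8 reached at most 0.854 FPKM. Of the muscle-type enzymes, Ckmt2 was listed at 0 in each library, and Ckm was listed at 0 in 5 libraries and at 0.0178 FPKM in the other.

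**Figure D1:**
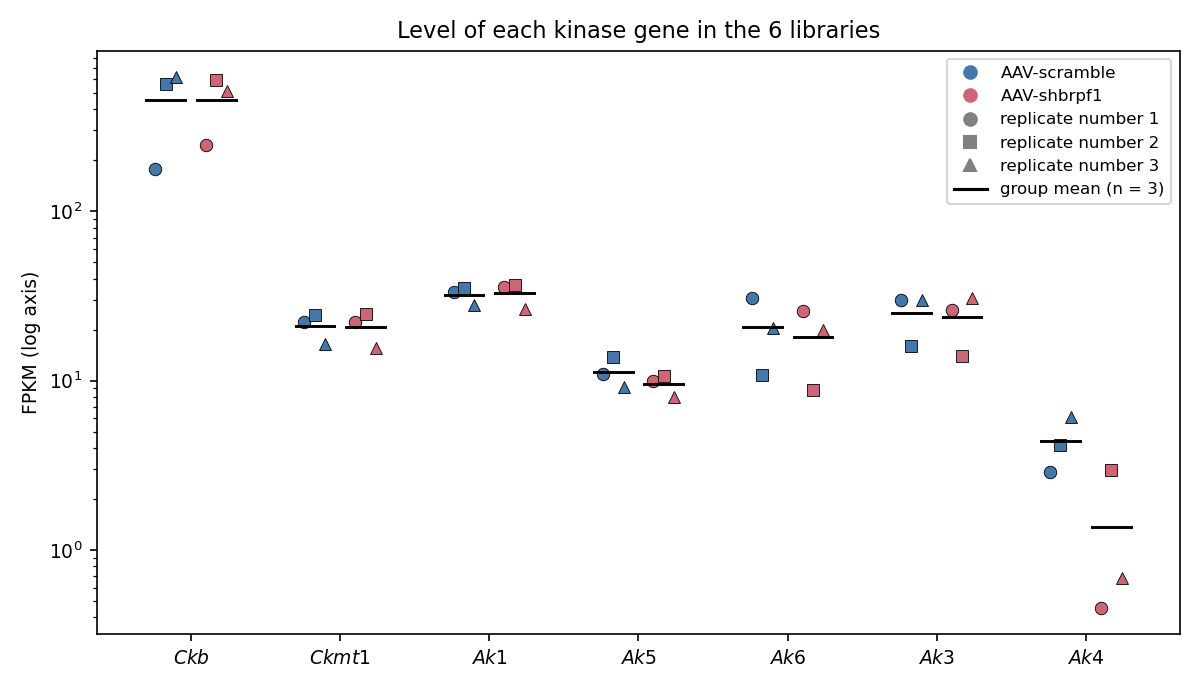
FPKM of each kinase gene (log axis) in the 3 scramble (AAV-scramble) and 3 hairpin (AAV-shbrpf1) libraries. Marker shape gives the replicate number and the bar the group mean. Ckb lies highest and is lower in both libraries numbered 1. Ak4 lies lowest, with the hairpin libraries 1 and 3 at 0.457 and 0.681 FPKM.

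Promoter sequences of Ak4 and Ckb are shown because Ak4 chose the set and Ckb is its most abundant gene and differed between replicate numbers. Both are the 250 bases before the annotated start in RefSeq (GRCm38.p6), written 5′ to 3′ on the strand of the gene, and for Ak4 the first of 4 starts is taken. Both strands were searched for the core letters of the hypoxia response element, written as GCGTG and, in its other form, ACGTG. The TATA box was searched for by the letters TATAAA. A further search on both strands looked for the box with the letters CCAAT. Capitals mark the matches, those on the other strand as their reverse complement. No 2 matches overlap in these windows.
Ak4, chr4:101419039-101419288, plus strand: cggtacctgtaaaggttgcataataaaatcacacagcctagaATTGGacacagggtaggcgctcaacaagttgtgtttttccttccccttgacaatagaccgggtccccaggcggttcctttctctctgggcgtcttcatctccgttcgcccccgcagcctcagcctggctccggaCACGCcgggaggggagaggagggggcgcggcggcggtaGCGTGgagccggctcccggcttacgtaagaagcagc
Ckb, chr12:111672339-111672588, minus strand: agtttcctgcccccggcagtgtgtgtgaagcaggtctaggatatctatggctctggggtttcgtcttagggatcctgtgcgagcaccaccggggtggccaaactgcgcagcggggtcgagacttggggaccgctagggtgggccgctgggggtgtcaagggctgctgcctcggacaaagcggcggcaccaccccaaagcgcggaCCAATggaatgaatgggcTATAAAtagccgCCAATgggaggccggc
The Ak4 window has 2 matches to GCGTG, 36 to 32 bases before the start and, on the other strand, 74 to 70 bases before it, and, reversed, the letters CCAAT. Of the 32851 promoter windows of this length, 28.2% hold GCGTG on either strand. The other form, ACGTG, found in 16.6% of windows, is not among the letters of this one. Which form is found depends on the start: the windows of the first 3 Ak4 starts, which overlap, each hold 2 GCGTG matches, while that of the fourth holds 2 of the other form only. The window of Ak6 holds 4 GCGTG matches. The Ckb window has a TATAAA match 28 to 23 bases before the start, as 12.4% of windows do at any position, and 2 CCAAT matches, a motif found in 33.8% of windows. A match describes letters only and says nothing on binding. Windows were found for 6 of the 7 genes.

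Ak4 chose the set, and its values are shown as they stand. It measured 2.88, 4.15 and 6.09 FPKM in libraries 1, 2 and 3 of the scramble group and 0.457, 2.98 and 0.681 FPKM in those of the hairpin group. The level was lower with the hairpin in each pair, by a large margin in pairs 1 and 3 and a small one in pair 2. Even so the groups overlapped, since hairpin library 2 lay just above scramble library 1. Hairpin library 2 had the lowest estimated depth (13.3 M fragments) and the highest share of ribosomal RNA features (11.9%). It had 18780 genes above 0, against 22621 to 26132 in the other libraries. The part of library quality in the Ak4 values was not tested. The ratios were 0.159, 0.716 and 0.112 in pairs 1, 2 and 3. Group means were 4.38 ± 1.62 and 1.37 ± 1.39 FPKM (SD, n = 3), and the log2 difference was -1.29 ± 0.43 (SE). Of 12792 genes, 26 had a more negative difference than Ak4 in pair 1, 5 in pair 3 and 1561 in pair 2, and in pair 2 Ak4 lay within the 5th to 95th percentile of all genes.

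How firmly these Ak4 values are known depends on the transcripts behind them. Ak4 (ENSMUSG00000028527) occupies bases 101419277 to 101466995 of chromosome 4 (GRCm38, plus strand) and has 7 annotated transcripts of 458 to 4360 nt, 6 of them coding. No other gene of the table overlaps it. Taken at the longest transcript, the libraries held an estimated 180, 385 and 558 Ak4 fragments in the scramble group and 39, 172 and 50 in the hairpin group. Exact 95% intervals of the ratio, which cover counting error only, were then 0.111 to 0.228 in pair 1, 0.595 to 0.860 in pair 2 and 0.0827 to 0.151 in pair 3. At the shortest transcript the same values would be 4 and 5 fragments in hairpin libraries 1 and 3, and the interval of pair 2 would run from 0.389 to 1.29. Ak4 was chosen because it was lower in each pair, so these intervals are no test of the difference. The pseudogene Ak3l2-ps, at 0.287 to 0.587 FPKM in the 6 libraries, was of the order of Ak4 in hairpin libraries 1 and 3.

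The other mitochondrial matrix enzyme, Ak3, measured 29.9, 15.97 and 29.7 FPKM in the scramble group and 26.1, 13.9 and 30.9 FPKM in the hairpin group. It was low in both libraries numbered 2, and the groups overlapped. The log2 difference was -0.11 ± 0.38 (SE), with ratios of 0.875, 0.872 and 1.04 in the pairs. With the replicate number as a block in the fit the SE was 0.09. Ak3 was 10.4, 3.84 and 4.88 times as abundant as Ak4 in the scramble group and 57.2, 4.68 and 45.4 times in the hairpin group. The wide values of that ratio came from Ak4, as Ak3 itself moved by at most 12.8% within a pair.

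For the cytosolic and nuclear adenylate kinases, too, the SE of the difference between the viruses depended on whether the pairs entered the fit. Ak1 measured 33.2, 35.5 and 28.1 FPKM in the scramble group and 35.6, 36.6 and 26.6 FPKM in the hairpin group, a log2 difference of 0.02 ± 0.24 (SE). Ak5 measured 10.9, 13.7 and 9.24 FPKM and 9.89, 10.7 and 7.99 FPKM, a difference of -0.22 ± 0.24. Ak6 measured 30.6, 10.8 and 20.6 FPKM and 25.6, 8.79 and 19.99 FPKM, a difference of -0.19 ± 0.49. With the replicate number as a block these SEs were 0.08 for Ak1, 0.09 for Ak5 and 0.09 for Ak6. In that fit 0 of the 12792 genes tested passed at a limma adjusted p under 0.05. Ak1 was higher in pairs 1 and 2 and lower in pair 3, while Ak5 and Ak6 were lower in each pair. With Ak4 that makes 3 of 7 members lower in each pair, against 11.3% of all genes tested, and 0 of 7 higher in each pair, against 7.15%. This contrast chose the set, and nothing is read from that count. Groups overlapped for all 7 genes (they did not for 0.492% of genes in the lower and 0.578% in the higher direction).

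Creatine kinase genes showed no common direction. Ckb measured 178, 564 and 618 FPKM in the scramble group and 246, 597 and 514 FPKM in the hairpin group. Its ratio was 1.38 in pair 1, 1.06 in pair 2 and 0.831 in pair 3, and the log2 difference was 0.09 ± 0.58 (SE). With the replicate number as a block that SE was 0.16, still larger than the difference. Ckmt1 measured 22.1, 24.4 and 16.6 FPKM and 22.2, 24.8 and 15.6 FPKM, with ratios from 0.944 to 1.02. Its difference was -0.02 ± 0.27, or ± 0.08 with the block. Ckmt1 thus kept nearly the same value in the 2 libraries of a pair. Over all genes tested the median log2 difference was -0.02.

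**Figure D2:**
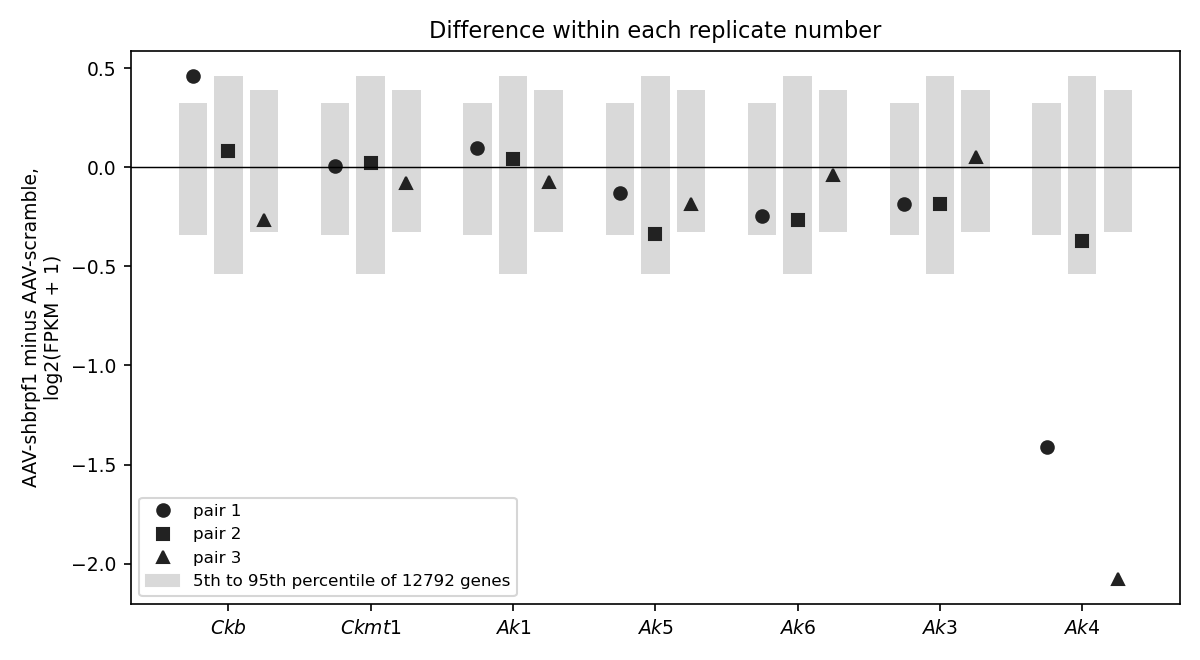
Difference between the hairpin and the scramble library of each replicate number on the log2(FPKM + 1) scale, for each gene. Grey bars span the 5th to 95th percentile of 12792 genes in that pair. Ak4 lies at -1.41 in pair 1 and -2.08 in pair 3, below the bars, and at -0.37 in pair 2, within its bar.

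Between replicate numbers, a comparison that did not choose the genes, 6 of the 7 differed. Limma's F test with the virus in the model passed at an adjusted p under 0.05 for Ak1, Ak3, Ak5, Ak6, Ckb and Ckmt1, where 69.4% of all genes tested passed. A count of 6 of 7 is near that background. The genes did not follow one pattern, however: Ckb was lowest in number 1, Ak3 and Ak6 in number 2, and Ak1, Ak5 and Ckmt1 in number 3.

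Ckb averaged 212 FPKM in the libraries numbered 1, 580 FPKM in number 2 and 566 FPKM in number 3. Numbers 2 and 3 stood above number 1 by 1.47 and 1.42 (SE 0.19 each) on the log2(FPKM + 1) scale (limma F test, adjusted p = 0.00337). The difference between numbers 2 and 3 had no stable size or sign: it was -0.04 on the deposited values, -0.25 after median-ratio scaling, -0.31 without scramble library 3 and 0.23 without hairpin library 3. Because Ckmt1 did not share this step, Ckb was 8.06 and 11.1 times as abundant as Ckmt1 in number 1 and 23.1 to 37.3 times in the other 4 libraries. The 2 creatine kinase genes summed to 1.86 and 2.74 times the 5 adenylate kinase genes in number 1 and to 6.14 to 8.52 times in the rest.

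Ak6 and Ak3 were lowest in number 2. Ak6 averaged 28.1, 9.79 and 20.3 FPKM in numbers 1, 2 and 3, with number 2 at -1.43 ± 0.11 (SE) relative to number 1 on the log2 scale (limma F test, adjusted p = 0.00227). Ak3 averaged 28.0, 14.9 and 30.3 FPKM, with number 2 at -0.86 ± 0.11 (adjusted p = 0.00271). The median of all genes was also lower there, at -0.25 for number 2 relative to number 1, and both genes lay well below it. After median-ratio scaling of the libraries that median was -0.11, a shift of more than 0.1, and the values of Ak6 and Ak3 became -1.28 and -0.70.

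The remaining members differed less. Ckmt1 averaged 22.2, 24.6 and 16.1 FPKM in numbers 1, 2 and 3, with number 3 at -0.44 ± 0.09 relative to number 1 (limma F test, adjusted p = 0.00714). Ak1 averaged 34.4, 36.0 and 27.3 FPKM (adjusted p = 0.0287), and Ak5 10.4, 12.2 and 8.61 FPKM (adjusted p = 0.0307). Calls of Ak1 and Ak5 were the least firm. Ak1 missed the threshold without scramble library 1 (adjusted p = 0.0854) or without hairpin library 1, 2 or 3 (0.0962, 0.0635 and 0.146). Ak5 missed it without scramble library 1, 2 or 3 (0.0906, 0.105 and 0.106) or hairpin library 1 or 3 (0.0894 and 0.0820). Ak3, Ak6, Ckb and Ckmt1 passed in each of these fits.

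Ak4 was the exception, with averages of 1.67, 3.57 and 3.39 FPKM and an adjusted p of 0.163 in limma's F test. It passed without scramble library 2 (adjusted p = 0.00251) or hairpin library 3 (0.0464). Of the variation of Ak4 on the log2(FPKM + 1) scale, as sums of squares, 21.3% fell to the replicate number, 60.8% to the virus and 18.0% to the remainder. For Ckb, Ckmt1, Ak1, Ak3 and Ak6 the number held 95.1% to 99.1%, and for Ak5 71.1%. Over all genes tested the number held 86.9% and the virus 3.62%. The share of the virus in Ak4 comes from the contrast by which it was chosen and is given as a description.

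**Figure D3:**
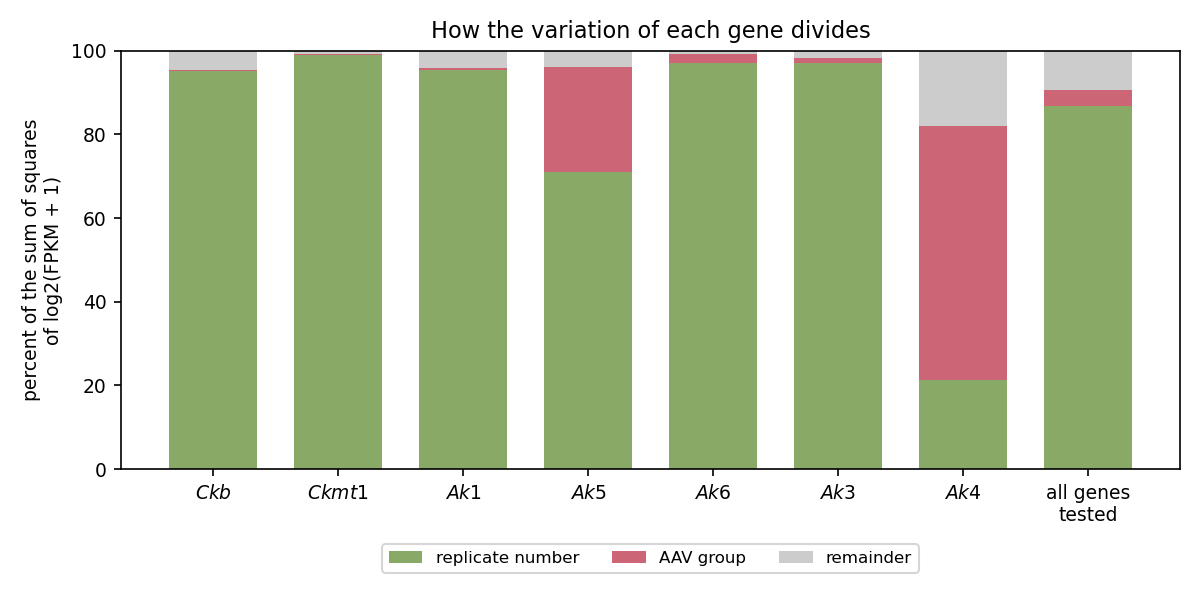
Share of the variation of log2(FPKM + 1) over the 6 libraries (sums of squares) that falls to the replicate number, to the AAV group and to the remainder (percent), for each gene and for all 12792 genes tested. The number holds 71.1% or more in each gene apart from Ak4, where it holds 21.3%.

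Marker sums of other cell types also split by replicate number. Each sum covers all genes of its list, including those below the minimum and so not counted as measured. Summed oligodendrocyte lineage markers (8 of 8 measured) came to 124 and 142 FPKM for number 1 and to 215 to 290 FPKM for the other 4 libraries, but members of the list differed. Olig1, at 58.9 and 69.4 FPKM against 127 to 179 FPKM, made up much of the sum, while Mog was lowest in number 2. GABAergic neuron markers (9 of 9) summed to 619 and 647 FPKM in number 1 and 754 to 931 FPKM elsewhere, a split carried by Sst, at 178 and 232 FPKM against 394 to 564 FPKM. Gad1, at 177 and 157 FPKM against 94.1 to 106 FPKM, Gad2 and Dlx6 ran the other way. Endothelial and mural markers (2 of 6 measured, the mural genes Acta2 and Tagln) summed to 25.8 and 24.5 FPKM in number 1 and at most to 1.30 FPKM elsewhere. Progenitor markers (6 of 7) summed to 269 and 242 FPKM in number 2 and 706 to 874 FPKM elsewhere. Most of that sum was Fabp7, at 187 and 169 FPKM against 570 to 758 FPKM, whereas Hes5 was lowest in number 1. Hes1 was lowest in number 1 in the scramble group and in number 2 in the hairpin group. Cycling cell markers (6 of 6) summed to 37.4 and 33.5 FPKM in number 2 and 62.6 to 71.7 FPKM elsewhere, a split that Rrm2 did not share. Astrocyte markers (8 of 8) summed to 326 and 300 FPKM in number 3 and 189 to 212 FPKM elsewhere. Within that list Gfap and Aqp4 were instead highest in number 1 and Aldh1l1 in number 2. Microglia and macrophage markers summed to at most 2.76 FPKM, with Cx3cr1 at 0 in each library. The part of these markers in the differences between numbers was not tested. In bulk samples fewer cells of a type and less RNA per cell cannot be told apart.

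Between the viruses, each of these marker sums overlapped. Astrocyte markers (8 of 8 measured), for example, summed to 202 to 326 FPKM in the scramble group and 189 to 300 FPKM in the hairpin group, and oligodendrocyte lineage markers to 124 to 290 and 142 to 276 FPKM. Their part in the Ak4 values was not tested.

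The other members lie apart on the genome, in GRCm38 coordinates. Ak1 (ENSMUSG00000026817) occupies bases 32621758 to 32635058 of chromosome 2, plus strand, and Ckmt1 (ENSMUSG00000000308) bases 121357714 to 121363737 of the same chromosome and strand. Ak3 (ENSMUSG00000024782) occupies bases 29020833 to 29047961 of chromosome 19, minus strand, and Ak5 (ENSMUSG00000039058) bases 152462815 to 152668360 of chromosome 3, minus strand. Ak6 (ENSMUSG00000078941) occupies bases 100650979 to 100666359 of chromosome 13, plus strand, and Ckb (ENSMUSG00000001270) bases 111669361 to 111672338 of chromosome 12, minus strand. Several of them share their locus with other genes. Taf9, which encodes a subunit of the general transcription factor TFIID, lies within the Ak6 interval on the same strand for 4482 bases. Because of this overlap, reads assigned to Ak6 may include reads of Taf9, which was not tested. Taf9 stood at 1.27 to 3.75 FPKM against 8.79 to 30.6 FPKM for Ak6. Like Ak6, Taf9 was higher in number 1 than in number 2. Ak3 overlaps Cdc37l1 on the other strand over 5849 bases, and the sources used here do not say if reads were counted by strand; Cdc37l1 measured 2.35 to 9.84 FPKM and, like Ak3, was lowest in number 2. Ak5 overlaps AI115009 over 1448 bases, where AI115009 was at most at 0.0259 FPKM, and Zzz3 over 12 bases. Ckmt1 overlaps Strc over 10 bases, Ak6 overlaps Rad17 over 73 and Ak3 overlaps 1700018L02Rik over 1717, each on the other strand. No gene of the table overlaps Ak1 or Ckb, and the pseudogenes Ckb-ps1 and Ckb-ps2 were listed at 0 in each library.

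The rest of the pathway did not differ between the viruses past the threshold. Of 83 genes in 7 lists, chosen with earlier results of these data known, 67 were tested, and 0 were higher and 0 lower at a limma adjusted p under 0.05. Of all 12792 genes 0% passed. At an unadjusted p under 0.05, 0 of the 67 genes and 23 of all genes would pass in limma's fit without the pairs. That fit leaves in its error the replicate number, which held 86.9% of the variation over all genes, so few genes could pass. With the replicate number as a block, 0 of the 67 genes and 280 of all 12792 genes would pass, still a smaller share than 0.05. Neither count shows that these genes are unchanged. Differences of the 67 genes ran from -0.27 to 0.34 with a median of -0.03, beside a median of -0.02 over all genes tested.

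Hypoxia-inducible and HIF pathway genes, of which Ak4 itself is a known target, had a median difference of -0.01 over 26 of 30 genes. Pgk1 and Ldha, glycolytic enzymes and the most abundant of that list, measured 122 ± 26.9 and 49.6 ± 7.74 FPKM in the scramble group and 119 ± 17.8 and 48.4 ± 10.6 FPKM in the hairpin group (SD, n = 3). Hif1a, which encodes the oxygen-regulated subunit of the factor, measured 21.3, 7.41 and 11.2 FPKM in the scramble group and 20.6, 5.94 and 12.99 FPKM in the hairpin group. It was named after its values were seen, and its groups overlapped.

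Genes that move or sense the same nucleotides were tested too. For 8 of 10 genes of mitochondrial nucleotide and phosphate exchange the median was -0.02. Vdac1, an outer membrane channel, measured 177 ± 24.6 and 184 ± 30.6 FPKM in the scramble and hairpin groups, and Slc25a4, an ADP/ATP carrier of the inner membrane, 159 ± 59.2 and 157 ± 64.3 FPKM. For 10 of 11 genes of AMP-activated protein kinase, the sensor of AMP, and its upstream kinases the median was -0.04, with Cab39 at 18.1 ± 8.50 and 17.1 ± 8.73 FPKM and Prkag1 at 13.8 ± 1.64 and 13.4 ± 0.227 FPKM. For Vdac1, Slc25a4 and Cab39 the means differed by less than either SD, and for Prkag1 by less than the SD of the scramble group but more than that of the hairpin group.

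Creatine supply was measured through 3 of 5 listed genes, with a median of -0.12. Gatm, which catalyses the first step of creatine synthesis, stood at 15.4 ± 5.14 FPKM in the scramble group and 15.3 ± 8.03 FPKM in the hairpin group, and the creatine transporter gene Slc6a8 at 11.1 ± 3.23 and 10.02 ± 2.72 FPKM. Among 11 other nucleoside mono- and diphosphate kinases (median -0.03) Nme2 measured 64.6 ± 13.7 and 69.7 ± 10.1 FPKM and Nme1 31.2 ± 1.93 and 30.1 ± 2.34 FPKM; these are close paralogs, between which reads may be shared. Of 12 genes of AMP breakdown and purine salvage 8 were tested (median -0.08), with Hprt at 39.5 ± 16.8 and 34.6 ± 16.2 FPKM and Aprt at 13.3 ± 4.72 and 13.5 ± 4.89 FPKM. Between replicate numbers 44 of the 67 genes passed limma's F test (65.7%, against 69.4% of all genes).

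**Figure D4:**
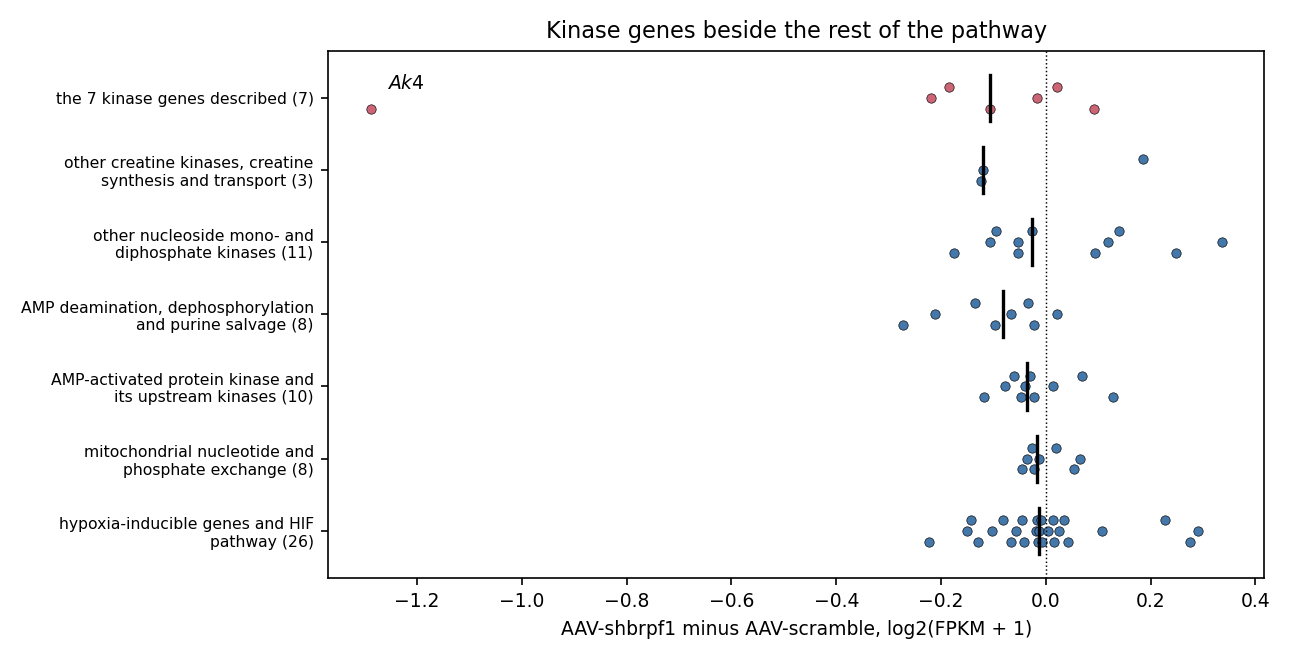
AAV-shbrpf1 minus AAV-scramble on the log2(FPKM + 1) scale for the 7 kinase genes (red) and the tested genes of each list with 2 or more of them (blue, number in brackets); black bars are medians. Ak4, which was chosen for its difference, lies at -1.29, and the list genes lie between -0.27 and 0.34.

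The genes whose profiles over the 6 libraries were most like those of 3 members are given as a description, without a test. The libraries share pairs, so these correlations rest on few independent points, and each set is the highest 3 of 11085 genes compared. For Ak4 they were Zfp324, a zinc finger gene, Usp27x, a deubiquitinase gene, and G6pdx, which encodes glucose-6-phosphate dehydrogenase, with Pearson correlations of log2(FPKM + 1) of 0.977, 0.974 and 0.951. Usp27x measured 2.16, 3.58 and 4.31 FPKM in the scramble group and 0.916, 3.34 and 0.998 FPKM in the hairpin group. It was, like Ak4, low in hairpin libraries 1 and 3 and not in library 2. Relative to their levels, Zfp324 and G6pdx spanned much narrower ranges, from 3.44 to 4.85 FPKM and from 14.3 to 17.8 FPKM.

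For Ckb the closest profiles were those of Ssr2, which encodes a subunit of the translocon-associated complex, Btbd17 and Wbscr17, with correlations of 0.998, 0.996 and 0.996. Ssr2 measured 20.5, 48.3 and 52.1 FPKM in the scramble group and 26.5, 49.4 and 43.0 FPKM in the hairpin group, low in the libraries numbered 1. For Ckmt1 they were Aacs, of acetoacetate activation, Stat3 and Maff, with correlations of 0.997, 0.997 and 0.994. Aacs measured 24.1, 27.3 and 17.8 FPKM and 24.3, 26.9 and 17.4 FPKM, low in the libraries numbered 3.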

How the data were processed

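RNA of 6 samples was sequenced as paired ends. The authors deposited a single table with 1 value per gene and sample; its header names no unit, and the deposited values are read as FPKM because they are not whole, have no fixed sum and StringTie is named in the submitters' processing notes, as are FastQC, DESeq2 and the build mm9, without versions or roles. The sources used here name no aligner or annotation and do not say if strand was used. Coordinates are given as GRCm38, because 54899 of the 55154 gene identifiers shared with GENCODE M21 match it in start and end. A gene's FPKM sums over transcripts and depends on those chosen.

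Groups and replicate numbers come from the sample titles. Genes whose mean reached 1 FPKM in either group (12792) were tested on log2(FPKM + 1), which understates changes of low genes, with limma 3.58.1 (trend, two-sided) in R 4.3.3 and Benjamini-Hochberg adjustment over all of them. One fit compared the viruses without covariates and another the replicate numbers with the virus as a term. Same-numbered libraries deviated together from their group means (Pearson r of 0.87, 0.83 and 0.57 over genes for numbers 1, 2 and 3, at most 0.00199 otherwise), and numbers were therefore treated as pairs, although their meaning is not labelled. Depth was estimated by taking the commonest FPKM times length among 11673 single-exon genes longer than 400 nt as 1 fragment. Intervals cover counting error only. The scripts were tested on simulated data.

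The members and lists were chosen with earlier results of these data known. Named are the members, Brpf1, the 2 most abundant genes of each list where none passed, genes that overlap a member and the 3 named genes most correlated with Ak4, Ckb and Ckmt1. A gene that this rule would name is not reported here. Alternatives were a pseudocount of 0.1, no filter, median-ratio scaling, the replicate number as a block, no virus term in the fit of replicate numbers, and leaving out each library.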

Additional observations from a re-analysis of the deposited data

How the results depend on the processing

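The count of genes past the threshold between the viruses, and that of the fixed lists, was 0 under each alternative run, including the replicate number as a block, a pseudocount of 0.1, no filter, median-ratio scaling and leaving out each library. An unadjusted p under 0.05 was reached by 280 of 12792 genes with the replicate block (145 higher, 135 lower) and by 23 without it. Both shares lie below 0.05, the share that would pass on average with no difference in any gene. The smallest limma adjusted p was 0.404. The block left the log2 differences of the members as they were and lowered the SE of Ak4 from 0.43 to 0.32. With a pseudocount of 0.1 the Ak4 difference moved from -1.29 to -1.96, since a smaller constant weighs low values more. Leaving out 1 library at a time gave -1.74 to -1.01 for Ak4, -0.34 to -0.08 for Ak5, -0.39 to 0.22 for Ak3, -0.57 to 0.24 for Ak6, -0.48 to 0.48 for Ckb, -0.17 to 0.17 for Ckmt1 and -0.07 to 0.16 for Ak1. In these fits only Ak4 and Ak5 kept their sign throughout. The fits did not use the pairs, so dropping a library left the replicate numbers unequal between the viruses. Ak6, which changed sign, was lower in each pair. Ak4 was chosen for its difference, and nothing on firmness is read from the signs. Between replicate numbers, leaving out 1 library at a time gave 4793 (without AAV-scramble library 1) to 8885 genes past the threshold, with 5331 without AAV-shbrpf1 library 1, and 4 to 6 members passed. The fits that left out 1 library tested 12701 to 13075 genes. The other alternatives gave 7194 of 31057 genes (no filter) to 9373 of 12792 (no virus term). Without a filter 4 members passed beside those 7194 of 31057 genes, as Ak1 (limma adjusted p = 0.0571) and Ak5 (0.0632) did not. Without the virus term 5 passed, as Ak5 did not (0.0623). Depth limits Ak4 most, with an estimated 39 and 50 fragments in AAV-shbrpf1 libraries 1 and 3 at the longest transcript. At the shortest transcript these would be 4 and 5.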
